A study of Mus musculus with 12 samples.

Results

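Mitochondrial ribosomal protein genes were followed in brainstem RNA from 12 mouse pups, 6 of which had received morphine and 6 saline. The members were the rows of the deposited count table whose symbol is Mrpl or Mrps followed by a number and at most 1 letter, and 78 of 55418 genes met this rule. The mice were outbred CFW stock at P15, with 3 of each sex given morphine and 3 of each sex given saline. They had been injected 2 times daily from P1 to P14 with saline or with 15 mg/kg morphine, and tissue was taken 16 h after the last injection, a state of spontaneous withdrawal. Pups of each litter were divided between the treatments, but no label gives the dam, so litters could not be modelled. Each mouse gave 1 library, and the 12 libraries hold between 27850565 and 48097947 counts on genes. Levels are counts scaled to library size (CPM) after TMM normalization, which corrects for differences in composition between libraries. Fold changes are log2 of morphine over saline.

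The members encode proteins of the mitoribosome, the ribosome of the mitochondrial matrix. They are transcribed in the nucleus, translated in the cytosol, and imported, and they join ribosomal RNAs transcribed from mitochondrial DNA. The mitoribosome makes the mitochondrially encoded core subunits of the respiratory chain and ATP synthase, on which neurons depend for most of their ATP. By the roles fixed in the list used here, 51 members belong to the large subunit and 26 to the small subunit. Mrps36 has since been assigned to the 2-oxoglutarate dehydrogenase complex, and Mrps18a and Mrps30 belong to the large subunit in spite of their names.

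The labels name the tissue as brainstem, while the text on RNA extraction names spinal cords. Slc6a5, the glycine transporter of inhibitory brainstem and cord neurons, lay between 479 and 638 CPM. The lumbar cord genes Hoxc10, Hoxd10, and Hoxa11 were each at 0.0865 CPM or less. The library labelled morphine male 6 held 379.9 CPM of Xist, against 0.398 to 2.71 CPM in the other males, and 12.8 CPM of the Y-linked Ddx3y, against 117.8 to 198.8 CPM. It stayed in its labelled group. Libraries also differed with GC content: over 18608 genes, Spearman's rho between a gene's GC content and its deviation from its own mean was 0.63 in saline male 1, 0.73 in saline male 2, 0.59 in morphine male 6, -0.73 in saline male 3, and -0.59 in saline female 6. It lay between -0.42 and 0.10 in the other 7 libraries. GC content is that of a gene's longest transcript, and the members span 38.6 to 60.4% GC.

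Promoter sequences from RefSeq (GRCm38.p6) were matched to 69 of the 78 members by symbol and gave 75 windows, each of the 200 bases before an annotated start. Genes of mitochondrial biogenesis are known as targets of NRF1, of ETS-family factors such as GABP, and of YY1. The NRF1 letters GCGCATGCG, searched on both strands, were in 8.00% of the members' windows and in 1.35% of all 32851 windows. The ETS letters CCGGAAG were in 21.3 against 6.29%, the SP1 letters GGGCGGG in 38.7 against 22.1%, and the YY1 letters AAGATGG in 5.33 against 3.45%. The TATA letters TATAAA were in 6.67 against 9.96%. The members' windows were also richer in GC, with a median of 59.0% against 53.0%, and in CpG, with a ratio of observed to expected CpG of 0.79 against 0.39. The windows compared were not matched for composition, and a match is a description of the sequence.

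The windows of 5 members are written out here, 5′ to 3′ on the gene's strand, with NRF1, ETS, SP1, and YY1 letters in capitals. Mrpl20 passed the threshold in males and Mrpl55 in females, Mrpl12 had the largest spread between saline mice among members over 5 CPM, and Mrpl22 and Mrpl9 are among the 6 with NRF1 letters. Bases that lie in an exon of a coding gene next to the start were left off.
Mrpl20, chr4:155802678-155802877, plus strand: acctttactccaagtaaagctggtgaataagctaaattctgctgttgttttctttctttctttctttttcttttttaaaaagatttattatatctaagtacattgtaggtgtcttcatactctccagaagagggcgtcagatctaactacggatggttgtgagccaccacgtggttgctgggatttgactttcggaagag
Mrpl55, chr11:59202286-59202485, plus strand: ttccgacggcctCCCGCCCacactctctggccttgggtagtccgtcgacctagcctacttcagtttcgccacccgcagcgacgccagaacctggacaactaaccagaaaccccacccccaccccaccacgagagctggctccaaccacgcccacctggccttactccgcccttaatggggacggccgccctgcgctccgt
Mrpl12, chr11:120484437-120484612, plus strand: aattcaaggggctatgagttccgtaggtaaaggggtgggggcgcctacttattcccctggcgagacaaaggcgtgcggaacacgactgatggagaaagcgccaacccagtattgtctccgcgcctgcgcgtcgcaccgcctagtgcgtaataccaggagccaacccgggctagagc
Mrpl22, chr11:58171464-58171660, plus strand: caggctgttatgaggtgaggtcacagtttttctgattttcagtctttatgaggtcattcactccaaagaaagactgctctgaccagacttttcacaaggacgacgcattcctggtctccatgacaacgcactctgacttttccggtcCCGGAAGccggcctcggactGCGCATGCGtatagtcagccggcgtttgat
Mrpl9, chr3:94443136-94443317, plus strand: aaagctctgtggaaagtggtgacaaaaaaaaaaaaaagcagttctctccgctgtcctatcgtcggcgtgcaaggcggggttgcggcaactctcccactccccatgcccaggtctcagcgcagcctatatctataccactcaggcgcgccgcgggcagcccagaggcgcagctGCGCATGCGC
Of these, Mrpl22 held NRF1 letters ending 24 bases and ETS letters ending 46 bases before its start. Mrpl9 held NRF1 letters on both strands in an overlapping stretch. The windows of Mrpl20 and Mrpl12 held none of the 4 motifs. The Mrpl20 window, with 38.0% GC, was the poorest in GC of the 5.

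Nearly all members were expressed in every library. The members together held between 50936 and 97131 counts per library, and 77 of 78 passed the filter on low counts in each fit. The exception, Mrpl53, had 1 count in 1 library. In the annotation, 88.0% of its exon bases lie in exons of Gm42688 on the same strand. Per kb of exons, the highest members were Mrps21 at 31.9, Mrpl20 at 29.0, Mrpl41 at 27.0, Mrpl27 at 25.9, and Mrpl18 at 23.7 CPM per kb, as means of the 12 libraries. The lowest that were tested were Mrps34 at 0.401, Mrpl23 at 0.732, Mrpl33 at 1.195, and Mrps10 at 2.26 CPM per kb. In between, the order was shallow: in 74 of the 77 neighbouring pairs, the ranges over the 12 libraries overlapped. The median level per kb of large-subunit members was 1.14 to 1.33 times that of small-subunit members in each library, and this ratio was 1.23 ± 0.0240 in morphine males and 1.26 ± 0.0623 in saline males (SD, n = 3 each).

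**Figure D1:**
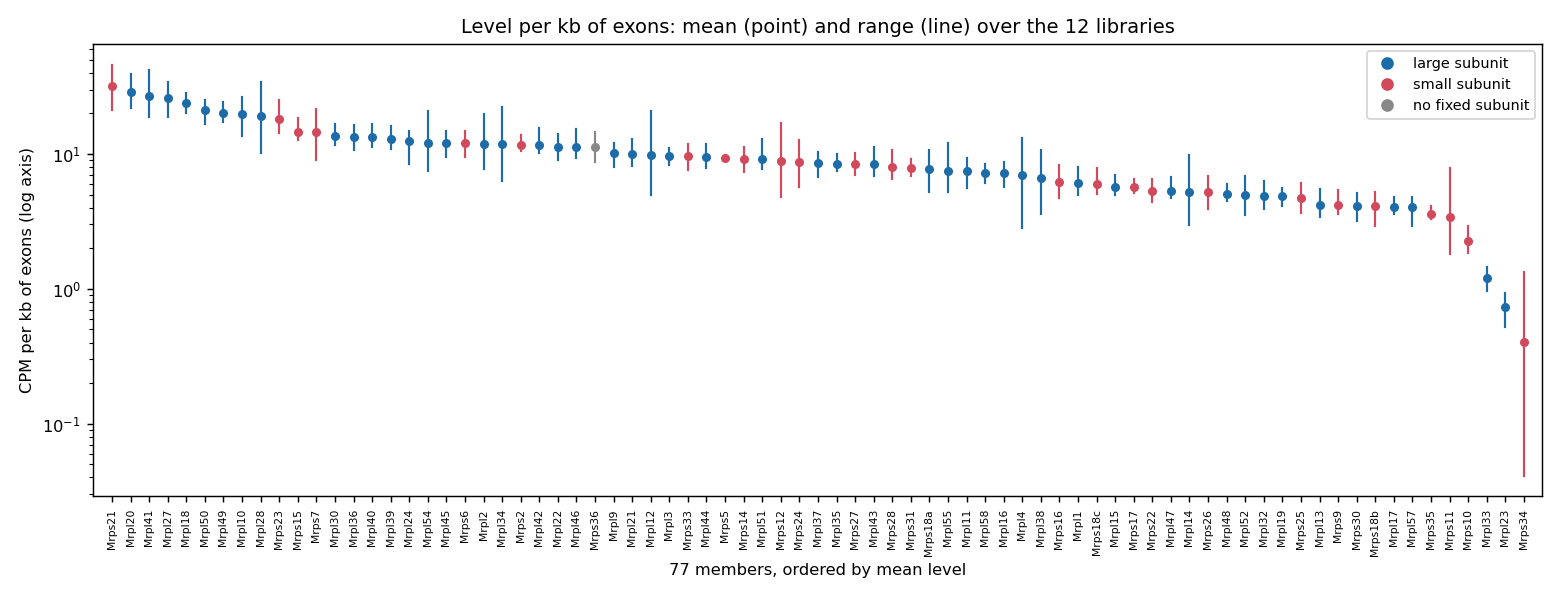
Mean level of 77 members per kb of exons (log axis), ordered from high to low, with a line from the lowest to the highest of the 12 libraries. Mrps21, at 31.9 CPM per kb, is the highest, and Mrps34, at 0.401, is the lowest and has the widest range.

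Members differed widely in how stable they were among saline mice. Among members over 5 CPM, the coefficient of variation over the 6 saline mice was 66.2% for Mrpl12, 64.3% for Mrps11, and 57.5% for Mrpl4, and 2.92% for Mrps5, 4.80% for Mrps35, and 6.62% for Mrpl18. Mrpl12, which forms the flexible stalk that recruits elongation factors, was at 31.9, 30.6, and 7.69 CPM in saline males 1, 2, and 3, and at 14.1, 10.3, and 7.56 CPM in saline females 4, 5, and 6. It was at 12.2, 10.1, and 17.8 CPM in morphine males 4, 5, and 6, and at 13.7, 10.8, and 15.3 CPM in morphine females 1, 2, and 3. The first and second saline males stood above every other library, and the third was at the level of the lowest female. Mrps5, at 46.9% GC, lay between 58.3 and 64.1 CPM in the 12 libraries, with no group apart from the others.

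This spread followed GC content. Of the 17 members with 54% GC or more, 15 had their highest level in saline male 1 or 2, and 16 had their lowest in saline male 3 or saline female 6. Across the 77 members, Spearman's rho between GC content and the deviation from a member's mean was 0.69 in saline male 1 and in saline male 2, -0.71 in saline male 3, and -0.73 in saline female 6. Of the 24 members under 46% GC, 12 were highest in morphine female 3, 7 in saline male 1 or 2, and 5 in saline male 3, and the lowest level of 15 fell in a morphine male. Mrps30, with 40.4% GC, was at 21.04 and 22.7 CPM in saline males 1 and 2 and at 34.3 CPM in saline male 3, the reverse of Mrpl12. The limits of the GC classes were set after the values were seen.

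**Figure D2:**
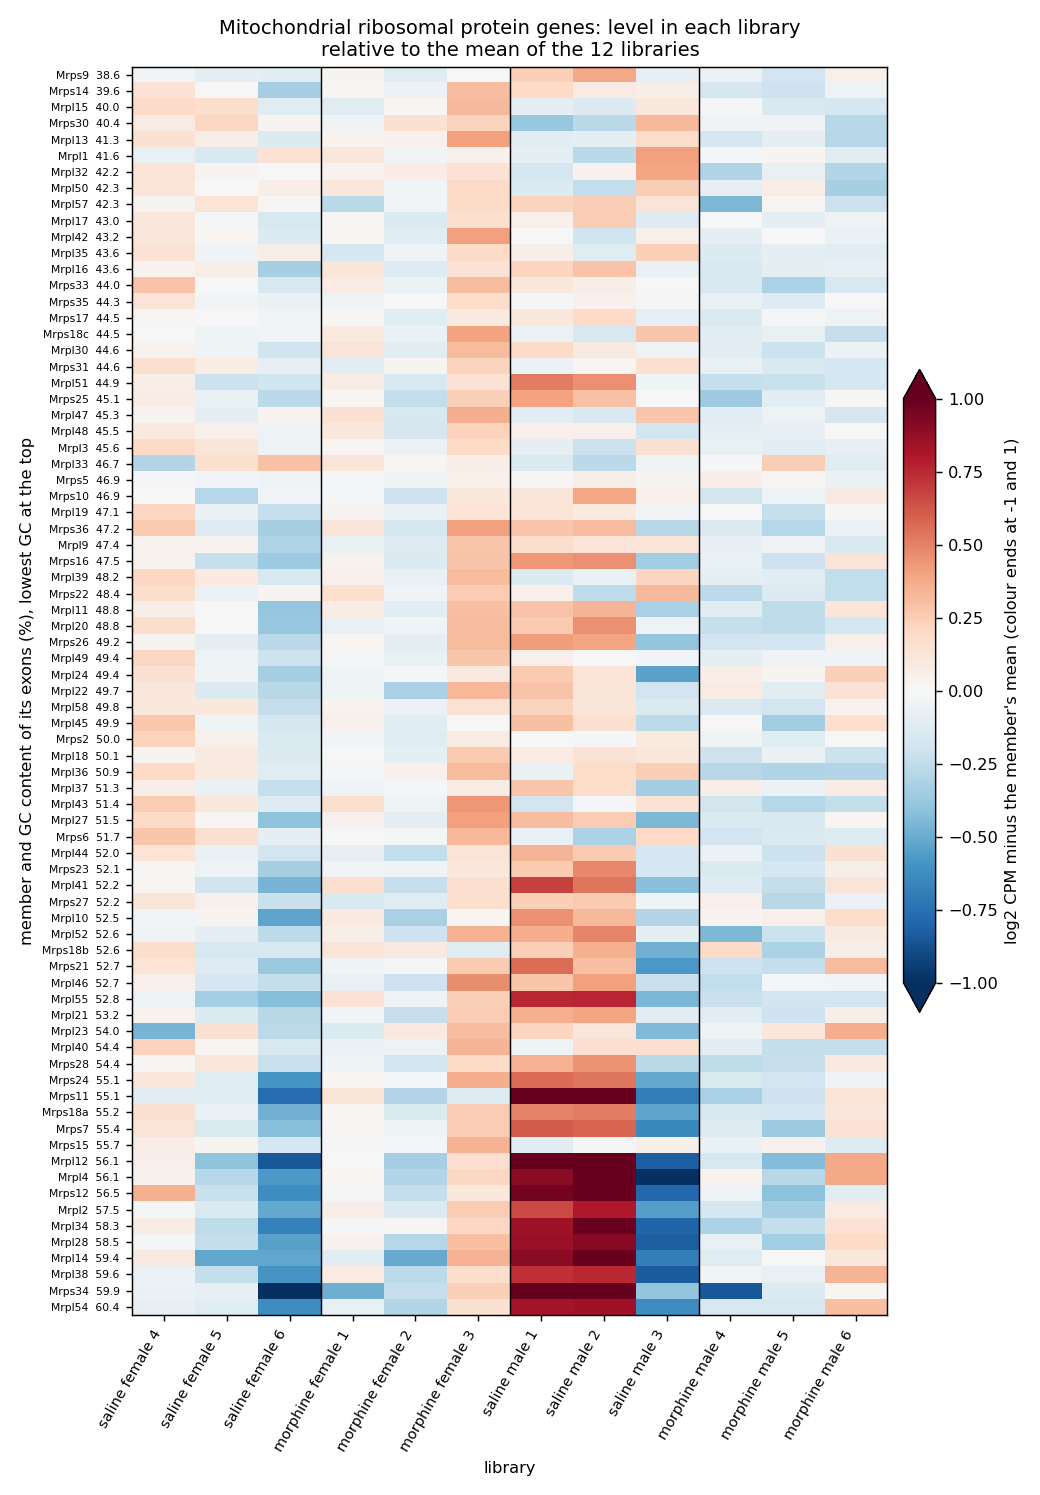
Deviation of log2 CPM from each member's mean over the 12 libraries for 77 members, ordered by GC content from 38.6% at the top to 60.4% at the bottom; red is above and blue below the mean. The GC-rich rows are red in saline males 1 and 2 and blue in saline male 3 and saline female 6, while morphine males 4 and 5 are pale blue in most rows.

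In females, the members were mostly slightly higher after morphine, and 1 passed the thresholds for differential expression. The summed level of the members was 1846, 1719, and 2136 CPM in morphine females 1, 2, and 3 and 1965, 1797, and 1592 CPM in saline females 4, 5, and 6, so the groups overlapped. With the quasi-likelihood test of edgeR on 18109 genes, 65 of 77 members lay above 0, where 48.2% of all genes did. The median log2 fold change of the members was 0.10 and that of all genes -0.01. A gene was called differentially expressed (DE) where its p before adjustment was under 0.05 and its log2 fold change was beyond 0.26 in either direction. By this rule, 1 member was higher (all genes, 0.928%) and 0 were lower, and no member had an adjusted p under 0.05 (1 had an unadjusted p under 0.05, also with DESeq2). In 1 member the groups did not overlap with morphine higher (all genes, 2.78%), and in 0 with morphine lower (all genes, 2.87%).

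The member that passed was Mrpl55 (ENSMUSG00000036860, chr11:59202486-59206134), a small protein of the large subunit. It was at 8.15, 7.18, and 8.70 CPM in morphine females 1, 2, and 3 and at 7.11, 5.80, and 5.46 CPM in saline females 4, 5, and 6. The lowest morphine female lay just above the highest saline female. Its log2 fold change was 0.38 (SE 0.16, unadjusted p = 0.0352, adjusted p = 1 by edgeR). The next smallest p values among the higher members were those of Mrpl38 (0.29, SE 0.16, unadjusted p = 0.103) and Mrpl2 (0.28, SE 0.16, unadjusted p = 0.105), the latter a protein of the catalytic centre. Those among the lower members were Mrps2 (-0.08), Mrpl57 (-0.09), and Mrpl35 (-0.06), with p between 0.505 and 0.594. The count of DE members rested on single mice. It was 12 without saline female 4 (7.95% of all genes DE in either direction) and 5 without morphine female 2 (3.73%). It was 0 without saline female 5, saline female 6, morphine female 1, or morphine female 3. Without morphine female 3 the median was -0.001.

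In males, the members were lower after morphine almost throughout, and 4 passed the thresholds. The summed level was 1701, 1670, and 1791 CPM in morphine males 4, 5, and 6, and 2129, 2125, and 1748 CPM in saline males 1, 2, and 3. Saline male 3 lay between morphine males 4 and 6, so the groups overlapped, and the means were 1721 ± 62.8 and 2001 ± 219 CPM (SD, n = 3 each), a ratio of 0.86. Scaled by total counts in place of TMM, they were 1793 ± 79.9 and 1921 ± 190.3, a ratio of 0.93. For the 24 members under 46% GC, the summed level was 695 to 705 CPM in morphine males and 767 to 807 CPM in saline males, which do not overlap. By total counts these were 723 to 734 and 729 to 785 CPM, which do. Of 77 members, 74 lay below 0, where 62.4% of the 18166 genes tested did. The members' median was -0.25 on the log2 scale, and that of all genes -0.06. The members above 0 were Mrpl33, Mrpl23, and Mrpl24, at 0.19, 0.16, and 0.12, with p between 0.340 and 0.603. By the thresholds, 4 members were lower (all genes, 1.07%) and 0 higher, and the smallest adjusted p of a member was 1 (edgeR; 4 had an unadjusted p under 0.05, also with DESeq2). In 14 members the groups did not overlap with morphine lower (all genes, 4.06%), and in 0 with morphine higher (all genes, 5.04%). These counts are after TMM. Of the 14, the groups overlapped by total counts in Mrpl16, Mrpl30, Mrpl40, Mrpl43, Mrpl49, Mrps14, and Mrps31. The share of all genes under that scaling was not computed.

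**Figure D3:**
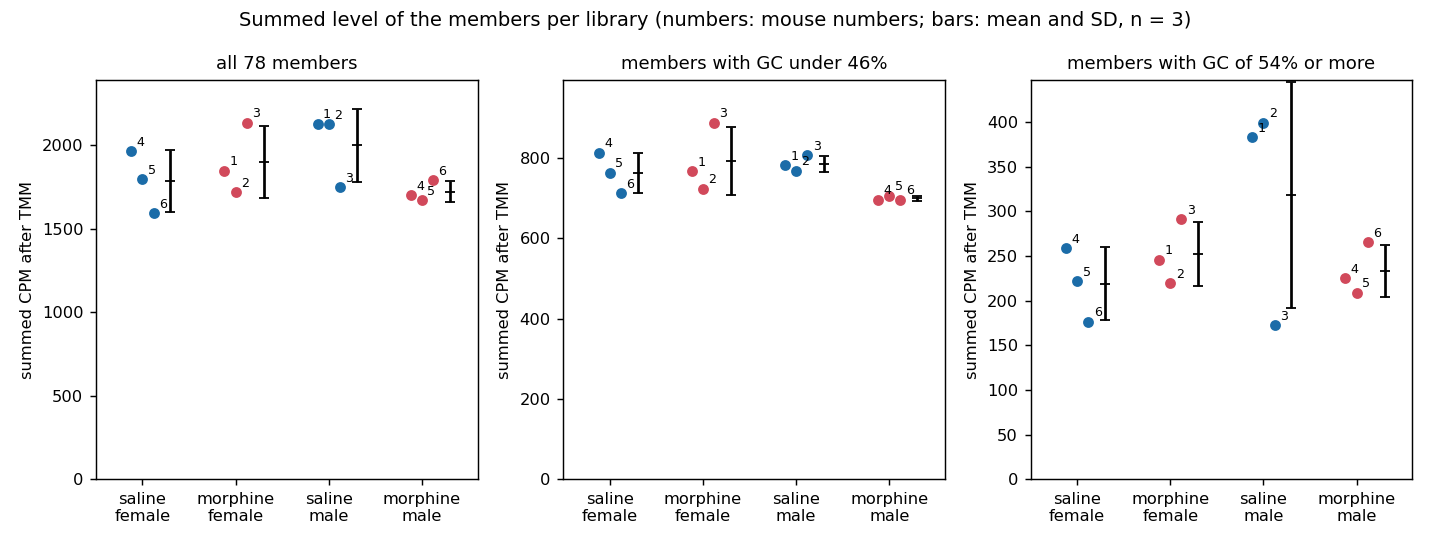
Summed CPM of the 78 members, of the 24 members under 46% GC, and of the 17 tested members with 54% GC or more, in each library (points with mouse numbers) with the mean and SD of each group (n = 3). For GC-poor members the 3 morphine males, at 695 to 705 CPM, lie below the 3 saline males, at 767 to 807 CPM, a gap that is lost with total-count scaling, and for GC-rich members saline male 3 lies far below saline males 1 and 2.

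Mrpl51 (ENSMUSG00000030335, chr6:125191801-125196269), a large-subunit protein with no bacterial counterpart, was at 31.4, 31.5, and 32.5 CPM in the 3 morphine males and at 52.2, 50.5, and 35.6 CPM in saline males 1, 2, and 3. Every morphine male was below every saline male, and the log2 fold change was -0.54 (SE 0.17, unadjusted p = 0.0164). Mrpl20 (ENSMUSG00000029066, chr4:155802878-155809975), whose bacterial counterpart is needed early in assembly of the large subunit, was at 40.4, 39.9, and 42.0 CPM in morphine males and at 57.0, 65.2, and 46.01 CPM in saline males. The groups were again apart, with a log2 fold change of -0.47 (SE 0.16, unadjusted p = 0.0199). Mrpl36 (ENSMUSG00000021607, chr13:73328513-73332178), a very small large-subunit protein, was at 12.7, 12.5, and 12.5 CPM in morphine males and at 14.7, 17.4, and 18.2 CPM in saline males. Here saline male 3 was the highest of the 6, unlike the GC-rich members, and the log2 fold change was -0.43 (SE 0.16, unadjusted p = 0.0306).

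Mrps34 (ENSMUSG00000038880, chr17:24895116-24897502), a small-subunit protein particular to mitochondria, had the largest value and the least depth. It was at 0.297, 0.525, and 0.591 CPM in morphine males, at 2.56 and 2.76 CPM in saline males 1 and 2, and at 0.429 CPM in saline male 3, which is inside the morphine range. The counts behind these were 10 to 20 in morphine males and 86, 126, and 14 in the saline group. The edgeR estimate was a log2 fold change of -2.03 (SE 0.67, unadjusted p = 0.0194), and without saline males 1 and 2 it was 0.10. In the annotation, 63.4% of its exon bases lie opposite Mapk8ip3 and 37.0% lie in Nme3, and no strand setting is named for the counting, so its counts are uncertain. Among members past no threshold, Mrpl57 (-0.41, unadjusted p = 0.0533), Mrps25 (-0.39, unadjusted p = 0.0569), and Mrpl18 (-0.28, unadjusted p = 0.0634) came next.

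Single mice weighed heavily on the male result. Without saline male 3, 34 members were DE and lower and 19 had an adjusted p under 0.05. In that fit 28.6% of all genes were DE in either direction. Without saline male 2, morphine male 4, or morphine male 5 the count was 0, and without saline male 1 it was 1. Without morphine male 6, the library with Xist, the count was 3 and the median -0.29, and Mrpl36 was no longer DE (-0.43, unadjusted p = 0.0845). Without saline males 1 and 2, a setting added after seeing the data that leaves saline male 3 alone in its group, so that the spread comes from the morphine males, the median was -0.01, with 39 of 77 members below 0. Scaling by total counts moved the median of all genes in males from -0.06 to 0.06. Relative to all genes, the members' median was -0.18 under either scaling, but with total counts 21 members lay above 0 and 2 were DE. The calls of Mrpl20 (-0.34, unadjusted p = 0.0664) and Mrpl36 (-0.30, unadjusted p = 0.101) ended there. That of Mrpl36 also ended with no filter (unadjusted p = 0.0587, 6 DE members) and in edgeR's exactTest (unadjusted p = 0.0600, 3 DE members).

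**Figure D4:**
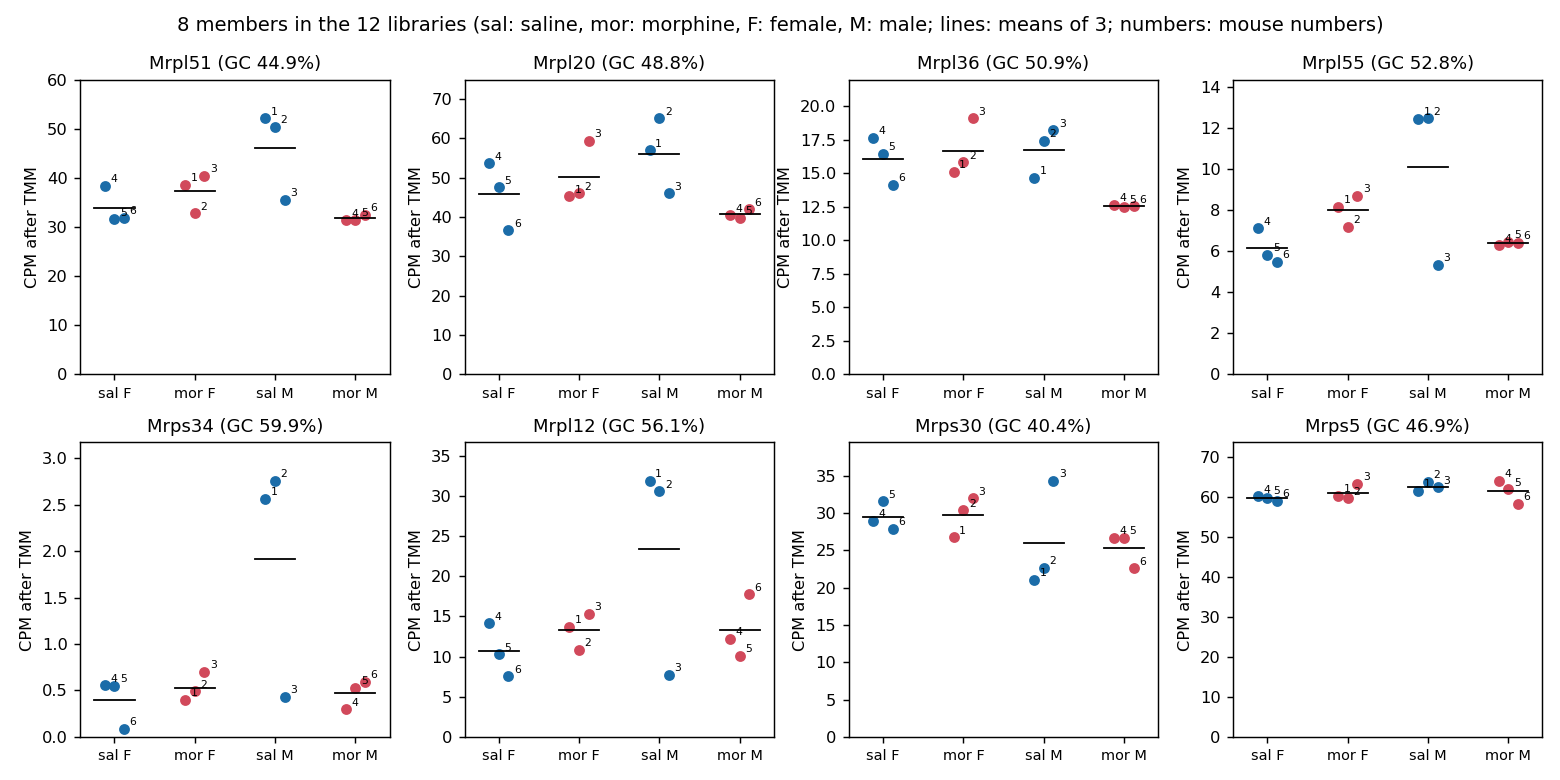
CPM of 8 members in the 12 libraries, with the mean of each group of 3 as a line. Mrpl51, Mrpl20, and Mrpl36 show morphine males below the saline males, Mrps34 and Mrpl12 show saline males 1 and 2 far above all other libraries, and Mrps5 is level, from 58.3 to 64.1 CPM.

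Fold changes varied with GC content and, for the members, with exon length. In males, 24 of 24 members under 46% GC lay below 0, with a median of -0.18 against -0.04 for all genes of that class. Of members from 46 to 50%, 16 of 18 lay below 0 (-0.17 against 0.002), from 50 to 54%, 17 of 18 (-0.24 against -0.04), and at 54% or more, 17 of 17 (-0.49 against -0.25). In females the same classes had member medians of 0.04, 0.07, 0.12, and 0.24, against -0.05, -0.03, 0.01, and 0.12 for all genes. In each class the members' median was above that of all genes in females and below it in males. Over the members, Spearman's rho of fold change with GC content was 0.55 in females and -0.49 in males, and over all genes it was 0.38 and -0.29. With exon length, which is that of all merged exons, the members' rho was -0.44 in females and 0.496 in males. GC content and length thus cannot be told apart from these values. These correlations are across genes, which share the same libraries and are not independent.

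With loess offsets for GC content and exon length in each library, fitted over all genes, the male median was -0.21 and 72 of 77 members lay below 0. The number of DE members in males then was 12, all lower, when 6.83% of all genes were DE in either direction. They were Mrps34, Mrpl20, Mrpl32, Mrpl18, Mrpl9, Mrpl36, Mrpl2, Mrpl55, Mrpl52, Mrpl51, Mrps11, and Mrps12, with adjusted p from 0.459 to 0.489, and the 4 of the fit without offsets were among them. After the offsets the members' median deviation was still 0.20 in saline male 1, 0.12 in saline male 2, and -0.08 in saline male 3, and it was -0.12, -0.18, and -0.02 in morphine males 4, 5, and 6. Saline male 3 thus stayed within the range of the morphine males.

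**Figure D5:**
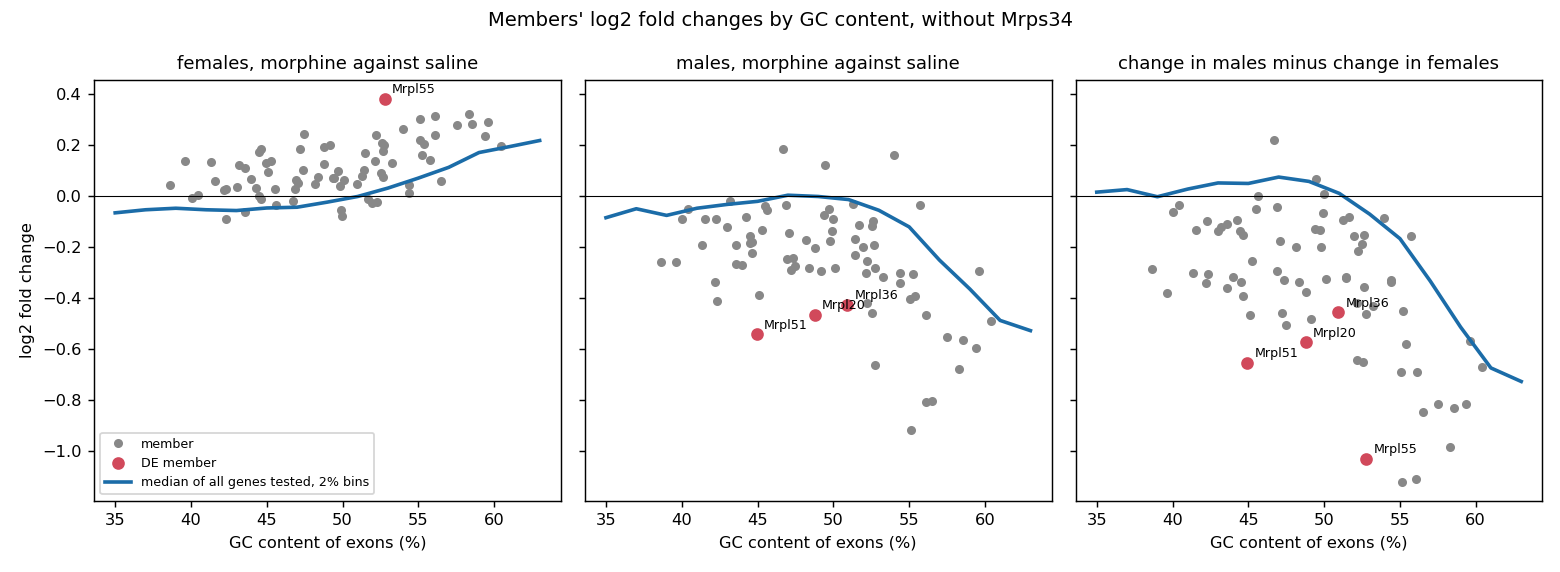
Log2 fold change of 76 members (Mrps34 left out) against the GC content of their longest transcript in females, in males, and for the interaction. Red points passed the thresholds and the blue line is the median of all genes tested in bins of 2% GC. Most members lie above the line in females and below it in males and in the interaction.

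The interaction term asked whether the change after morphine differed between the sexes, and is the log2 change in males minus that in females. Of 77 members, 73 lay below 0, where 54.4% of 19027 genes did, with a median of -0.33 against -0.03 for all genes. With total-count scaling 63 lay below 0, with a median of -0.22 against 0.07, and 3 were DE. By the thresholds, 5 members were below 0 (all genes, 1.33%) and 0 above, and the smallest adjusted p was 0.985 (edgeR; 5 had an unadjusted p under 0.05). DESeq2 called 9 members DE, among them these 5, and its share over all genes is not given here. The 5 were Mrpl51 at -0.65 (SE 0.22, unadjusted p = 0.0104), Mrpl55 at -1.03 (SE 0.37, unadjusted p = 0.0173), Mrps34 at -2.42 (SE 0.96, unadjusted p = 0.0271), Mrpl20 at -0.57 (SE 0.24, unadjusted p = 0.0320), and Mrpl36 at -0.45 (SE 0.21, unadjusted p = 0.0467). Mrpl55 in males was at 6.27, 6.46, and 6.41 CPM after morphine and at 12.4, 12.5, and 5.33 CPM after saline, so its male groups overlapped through saline male 3. The members nearest to a positive term were Mrpl33 (0.22), Mrpl24 (0.07), and Mrps2 (0.01), with p between 0.397 and 0.969. In the sexes side by side, which share no mice, 63 of 77 members (81.8%) were above 0 in females and below 0 in males, against 35.4% of 17757 genes. With the offsets for GC content and length, 17 members were DE in the interaction, all below 0. Of all genes, 6.04% were DE there in either direction. Without saline male 3 there were 36 DE members, 20 with an adjusted p under 0.05. In that fit 24.1% of all genes were DE in either direction. Without saline female 4 there were 11, and leaving out any other mouse gave between 2 and 7. Without saline males 1 and 2 the median was -0.07, with 44 members below 0.

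In the sex-combined comparison of 6 morphine with 6 saline mice, no member was DE (all genes, 1.19%) and none had an unadjusted p under 0.05, with edgeR and with DESeq2 except Mrpl57, whose p was 0.0485 with DESeq2. Of 77 members, 57 lay below 0, where 57.4% of 18608 genes did, and the median was -0.05 against -0.02 for all genes. With total-count scaling 40 lay below 0, with a median of -0.005 against 0.03. In no member did the 6 and 6 mice fail to overlap (all genes, 0.043%). The smallest p was that of Mrpl57, a small large-subunit protein, at 11.0 ± 1.75 CPM in morphine and 13.0 ± 0.875 CPM in saline mice (SD, n = 6 each), a log2 fold change of -0.23 (SE 0.12, unadjusted p = 0.0668). Mrps34 (-0.91, unadjusted p = 0.141) and Mrpl36 (-0.17, unadjusted p = 0.165) followed. On the higher side were Mrpl23 (0.23, unadjusted p = 0.181), Mrpl24 (0.11, unadjusted p = 0.402), and Mrpl33 (0.10, unadjusted p = 0.425). Leaving out saline female 6 or morphine female 3 gave 2 DE members and leaving out saline male 3 gave 1, all lower. Without saline male 3 and saline female 6 together, a setting added after seeing the data, 10 members were DE and lower. In that fit 10.1% of all genes were DE in either direction. Over the members, Spearman's rho of the sex-combined fold change was -0.295 with GC content and 0.31 with exon length.

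By role, none of the fixed groups had a DE member in any of the 4 fits apart from those named. The stalk proteins Mrpl10, Mrpl11, and Mrpl12 were at 0.09, 0.19, and 0.31 in females and at -0.12, -0.20, and -0.81 in males, with p between 0.157 and 0.589. Of the catalytic centre, Mrpl2, Mrpl16, and Mrpl27 were at -0.55, -0.27, and -0.17 in males, and Mrpl3 was at -0.06, with p between 0.113 and 0.719. Mrpl16 was at 26.3, 27.6, and 21.7 CPM in saline males and at 20.3, 21.2, and 21.4 CPM in morphine males. These groups do not overlap after TMM, but by total counts they do. At the exit tunnel, Mrpl45, which holds the ribosome to the inner membrane, was at -0.05 in females and -0.14 in males. Its neighbours Mrpl22, Mrpl23, Mrpl24, and Mrpl4 were at -0.05, 0.16, 0.12, and -0.47 in males. The decoding protein Mrps12 was at 0.06 and -0.80, and Mrpl58, a peptidyl-tRNA hydrolase that frees stalled chains, at 0.04 and -0.18 in females and males.

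The 3 Mrps18 paralogs, which descend from 1 bacterial protein, differed in level and in pattern. Mrps18a lay between 19.2 and 39.6 CPM, highest in saline males 1 and 2, while Mrps18c, at 44.5% GC, lay between 5.43 and 8.48 CPM and reached 7.75 CPM in saline male 3. Mrps18b lay between 6.07 and 10.9 CPM. Their male log2 fold changes were -0.31, -0.18, and -0.10 for Mrps18a, Mrps18c, and Mrps18b, with p between 0.311 and 0.725. Mrps30 was at 0.004 in females and -0.05 in males, and Mrps36 at 0.18 and -0.29. Large-subunit members had a male median of -0.21 with 47 of 50 below 0, and small-subunit members -0.26 with 26 of 26 below 0. The 48 members of bacterial protein families had a median of -0.23 and the 28 tested members particular to mitochondria -0.26.

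Exons are shared with other genes by 33 members, and by 18 over more than 10% of their exon bases. Mrps25 shares 69.8% with Nr2c2, Mrpl19 36.0% with Gcfc2, Mrpl43 33.4% with Twnk, the mitochondrial helicase gene, and Mrps18b 30.5% with the antisense Gm16279, each on the opposite strand. Counts of these members are uncertain where the counting took no account of strand. Mrpl46 and Mrps11 lie head to head and share 173 exon bases. Mrps11 was at 13.95, 17.0, and 4.17 CPM in saline males 1, 2, and 3, and its male log2 fold change was -0.92 (SE 0.47, unadjusted p = 0.0933), while that of Mrpl46 was -0.28 (SE 0.20, unadjusted p = 0.202). Leaving out the members that share exons kept the ratio of the morphine to the saline mean of the summed level, in CPM after TMM, at 0.86 in males and 1.07 in females. The 5 annotated pseudogenes of Mrpl23, Mrpl48, and Mrps36 had mean counts of 3.42 or less per library.

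Lists of genes from the same pathway were set beside the members, and the lists were written with earlier results of these data known. The 5 mitoribosomal subunits with other names, such as Dap3 and Ptcd3, had a male median of -0.16 with 5 of 5 below 0, and a female median of -0.01. Of 26 assembly factors, which process ribosomal RNA or load proteins, 23 lay below 0 in males (median -0.16) and 21 above 0 in females (0.06), and 0 were DE. The 15 tested translation factors had medians of -0.05 in males and -0.04 in females, with 0 DE, and 17 mitochondrial aminoacyl-tRNA synthetases had -0.05 and 0.04. In this last list, Sars2, which charges mitochondrial tRNA with serine, was DE in females at 0.59 (SE 0.19, unadjusted p = 0.00999, adjusted p = 1 by edgeR). The 11 regulators of mitochondrial biogenesis, Nrf1 and Tfam among them, had medians of -0.11 in males and 0.01 in females with 0 DE.

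Mitochondrially encoded RNAs held no DE gene. Of 13 mitochondrial mRNAs, 7 were tested, with a male median of -0.28, a female median of -0.01, and 0 DE, and the 2 mitochondrial rRNAs had -0.25 and 0.01. The others, mt-Nd3, mt-Nd4l, mt-Co2, mt-Co3, mt-Atp6, and mt-Atp8, were at 0.05945 CPM or less in each library, while mt-Co1 was at 16184 or more. Why they held almost no counts was not tested, and the sums below rest on the 7. The summed mRNAs were at 47957, 46755, and 69805 CPM in saline males 1, 2, and 3 and at 43099, 54916, and 40053 CPM in morphine males 4, 5, and 6. The groups overlapped, and saline male 3, the lowest of its group for the members' sum, was here the highest. Poly-A selection shapes the level of these RNAs. The cytosolic ribosomal proteins had medians of -0.38 in males and 0.21 in females. Of 81, 8 were DE and lower in males (all genes, 1.07%) and 3 DE and higher in females (all genes, 0.928%). The nuclear oxidative phosphorylation subunits had medians of -0.31 in males and 0.17 in females. Of 75, 7 were DE and lower in males (all genes, 1.07%) and 5 DE and higher in females (all genes, 0.928%). The smallest p of these in males was that of Ndufc2, at -0.63 (SE 0.16, unadjusted p = 0.00494 by edgeR). Both lists were thus further from 0 than the members in each sex, and the difference between lists was not tested.

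The genes outside these lists whose log2 CPM ran closest to the members' mean over the 12 libraries were Tceal3 (Pearson's r 0.99), Gabarapl2 (0.98), Nudc (0.98), Tprgl (0.98), and Pebp1 (0.98). They were picked as the highest of all genes tested, share libraries and depth with the members, and range from 42.2 to 57.2% GC.

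Among cell type markers, all 3 of cerebellar granule cells were higher in morphine males than in saline males without overlap. Their summed level was 32.1 to 64.3 CPM in morphine males and 21.9 to 24.2 CPM in saline males, and no marker was at 0. The 3 choroid plexus markers summed to 404 to 809 CPM in morphine males and 253 to 513 CPM in saline males, and to 7.63 to 450.5 CPM in saline females. The 4 astrocyte markers summed to 1836 to 1894 CPM in morphine males and 2003 to 2142 CPM in saline males, lower without overlap. By total counts they summed to 1882 to 1995 and 1921 to 2035 CPM, which overlap. Taken singly, each of the 4 overlapped between these groups. In saline males 1, 2, and 3, Gfap was at 779.9, 863.7, and 432.8 CPM and Aqp4 at 685.3, 756.9, and 1097.4 CPM. The 4 oligodendrocyte markers summed to 28363 to 35782 CPM in morphine males and 32647 to 51310 CPM in saline males. The part of tissue makeup in the members' values was not tested, and in bulk tissue fewer cells of a type and less RNA per cell cannot be told apart.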

How the data were processed

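RNA of medulla and pons was sequenced as 100 bp single-end reads from poly-A libraries pooled on 1 lane. The deposited table holds raw counts per gene and library, which the authors made with Trimmomatic, STAR (mm10), and featureCounts. The strand setting is not given in the sources used here. With edgeR 4.0.16 in R 4.3.3, genes were filtered with filterByExpr, scaled by TMM, and tested by quasi-likelihood across all genes in 4 fits (sex as a covariate, females, males, interaction), two-sided, with Benjamini-Hochberg adjustment over all genes tested. All p values in the text come from these fits unless DESeq2 (1.42.0), exactTest, or another setting is named. Each SE was derived from the test, as the absolute log2 fold change over the square root of its F statistic. Mice are the replicates.

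Members and lists were chosen with earlier results of these data known. Named members are the 5 highest and lowest per kb, those with the largest and smallest spread, DE members, the 3 smallest p in each direction, and those of fixed roles; others are named after their values were seen, as are members that share exons. Symbols were matched to GENCODE annotation of GRCm38 (55418 of 55418; 115 stand for several genes). The scripts were tested on simulated data. Alternatives covered tool, scaling, filter, GC and length offsets, and leaving out mice. Settings that leave out 2 mice, and the GC classes, were chosen after seeing the data.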

Additional observations from a re-analysis of the deposited data

Results flagged for a closer look

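Among 78 groups of 6 mice, 5 held a library that stood apart by Dixon's criterion, and chance gives about 1 in 20. The groups were the named members and summary measures of the members, such as their summed CPM, in each treatment. Of the morphine mice, female 3 was highest for Mrpl20 at 59.37 CPM (the others 39.87 to 46.08), for Mrpl27 at 33.43 CPM (22.62 to 25.82), and for Mrpl35 at 40.29 CPM (31.14 to 34.32). Morphine female 2 was lowest for Mrpl10 at 26.34 CPM (33.5 to 37.41). Of the saline mice, male 3 was highest for Mrps18c at 7.75 CPM (5.71 to 6.41).

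For 5 members the change after morphine differed between the sexes by the interaction test at an unadjusted p under 0.05 (edgeR), with the smallest adjusted p of any member at 0.985. The change in males minus that in females was -0.652 for Mrpl51, -1.028 for Mrpl55, -2.422 for Mrps34, -0.572 for Mrpl20, and -0.454 for Mrpl36 on the log2 scale. The Mrps34 value rests on saline males 1 and 2, with 86 and 126 counts.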

How the results depend on the processing

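In the sex-combined fit the number of DE members was 0 under each other tool, scaling, filter, covariate, and offset tried with the 12 mice. Leaving out 1 mouse gave 0 to 2 (2 without saline female 6 or morphine female 3, 1 without saline male 3), and leaving out saline male 3 with saline female 6 gave 10 (10.1% of all genes), with Mrpl24 then at -0.061. In females the count of 1 was 2 with no filter, 0 in a fit of the 12 mice, and 0 to 12 leaving out 1 mouse. Over those fits Mrps2 ran from -0.157 to 0.01, Mrpl57 from -0.21 to 0.023, and Mrpl35 from -0.172 to 0.021. In males the count of 4 was 2 with total counts, 6 with no filter, 3 with exactTest, 12 with GC and length offsets, 8 in a fit of the 12 mice (4.15% of all genes), and 0 to 34 leaving out 1 mouse (34 without saline male 3), with Mrpl24 from -0.047 to 0.274. Without saline males 1 and 2, where 1 saline mouse is assumed to vary like the morphine males, it was 20 (8 higher, 12 lower; 31.1% of all genes), the median was -0.013, and Mrps34 was at 0.1. In the interaction the count of 5 was 9 with the DESeq2 Wald test, 12 with no filter, 3 with total counts, 3 with a minimum of 10 counts in every library, 17 with GC and length offsets, and 2 to 36 leaving out 1 mouse (36 without saline male 3). It was 10 (17.8% of all genes) without saline males 1 and 2, where the median was -0.073, and 29 (18.6%) without saline male 3 and saline female 6. Mrps2 in the interaction was at -0.016 with the Wald test, -0.017 with DESeq2 size factors, -0.008 with no filter, -0.056 with the offsets, and -0.076 without saline males 1 and 2, and from -0.108 to 0.064 leaving out 1 mouse. Mrpl24 there was at -0.039 without saline male 3 and saline female 6, and from -0.156 to 0.228 leaving out 1 mouse. For members under 46% GC, the ratio of the morphine to the saline mean of the summed level in males was 0.89 after TMM and 0.965 by total counts, the latter added after seeing the data. The cause of these changes was not tested. The shares of all genes given for these settings count both directions. A count of DE members given without the share of all genes cannot be set against how many genes that setting called. Medians leaving out 1 mouse lay from -0.134 to -0.017 (sex-combined), -0.001 to 0.184 (females), -0.292 to -0.159 (males), and -0.401 to -0.215 (interaction).

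With the replicate number as a block in the sex-combined fit, 0 members were DE and the median was -0.044. Saline and morphine mice of 1 number correlated at -0.356 to 0.18 in their deviations from the group means. No label pairs them, and these values cannot show whether they share a litter. Groups of 3 mice and libraries that differ with GC content limit these results, as does depth for Mrps34.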
